A study of Mus musculus with 4 samples.

Results

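The 10 genes Nfkb1, Nfkb2, Rela, Relb, Nfkbia, Tnfaip3, Tnfrsf1a, Tnfrsf1b, Birc3 and Traf1 encode parts of the route from tumour necrosis factor (TNF) receptors to the transcription factor NF-kB. Their open chromatin was compared in MC38/gp100 cells, a mouse cancer cell line that carries gp100, after 5 days in 1 µM GSK3368712, which blocks the type I enzymes among the protein arginine methyltransferases, and after 5 days in the solvent DMSO. Each group had 2 ATAC-seq libraries, in which a transposase inserts adapters into accessible DNA. Both groups were made from 1 line kept in culture, 100000 cells were harvested per group, and nothing in the labels says whether both libraries of a group stem from separate cultures, so the p-values measure a spread that may be technical. Peaks were chosen by position in the mm10 genome: the peak centre lay inside one of the 10 genes, within 1 kb of either of its ends, or had one of these ends as its nearest end of a protein-coding gene. This gave 104 of the 97699 peaks of the authors' deposited table, and 91 of them were among the 74791 peaks counted as tested, which are those with a deposited adjusted p-value under 1. The other 13 were weak peaks with an adjusted p of 1. Nearness to a gene does not show that a peak regulates it.

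NF-kB factors are dimers of the Rel family. In resting cells they are held in the cytoplasm by IkB proteins, and TNF binding to its receptors recruits TRAF and cIAP proteins that switch on the IkB kinase, which marks IkB for destruction and frees the dimer to enter the nucleus. The freed factor switches on, among others, the genes of its own inhibitors, which closes a feedback loop. RELA is also known as a protein that arginine methyltransferases can modify.

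Values below are group means as deposited, in normalised reads per peak, so no spread within a group is shown. A change is the log2 level with GSK3368712 minus the log2 level with DMSO, and a peak is called lower or higher where the authors' deposited adjusted p-value was under 0.05. The standard error (SE) beside a change was derived from its fold and p-value under a normal distribution. For log2 folds under 0.1 it was taken from tested peaks near in level instead, and not from the peak itself. Values per library were not analysed here, and the depth of each library is unknown.

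The start sites of the genes held strong peaks, and the sequences beneath 3 of them are shown because these promoters carry matches to the NF-kB consensus. They are the 150 bases before the RefSeq start (GRCm38.p6), 5′ to 3′ on the gene's strand, with matches to the NF-kB consensus on either strand, and for Tnfaip3 also the AP-1 motif TGANTCA, in capitals. A peak of the table spans each of them.
Nfkbia, chr12:55492648-55492797, minus strand: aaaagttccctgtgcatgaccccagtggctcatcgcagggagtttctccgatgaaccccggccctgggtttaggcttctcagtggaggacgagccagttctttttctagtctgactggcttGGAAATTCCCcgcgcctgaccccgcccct
Tnfaip3, chr10:19015411-19015560, minus strand: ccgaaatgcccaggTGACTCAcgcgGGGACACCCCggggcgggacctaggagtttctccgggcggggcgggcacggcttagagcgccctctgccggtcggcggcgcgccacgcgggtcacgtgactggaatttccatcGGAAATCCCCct
Nfkb2, chr19:46304587-46304736, plus strand: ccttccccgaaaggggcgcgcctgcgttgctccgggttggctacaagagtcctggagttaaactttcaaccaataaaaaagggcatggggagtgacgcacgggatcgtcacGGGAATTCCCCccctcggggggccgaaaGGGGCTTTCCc
In Nfkbia the match lay at positions -29 to -20 from the start. In Tnfaip3 matches lay at -125 to -116 and at -12 to -3, with the AP-1 motif at -136 to -130. In Nfkb2 overlapping matches covered -39 to -29 and another lay at -11 to -2. RefSeq promoter windows, of 250 bases before to 50 after a start, were at hand for 8 of the 10 genes, all but Nfkb1 and Relb, 11 windows in all. A consensus match was found in 3 of the 8 genes, or 37.5%, against 9.55% of the 27025 genes with a window, and the AP-1 motif in 2 of the 8, against 8.97%. The 3 windows of Nfkb2 lie close together, and a match is not evidence that a factor is bound.

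Those start sites showed no called change. Each of the 8 genes with a promoter window had 1 peak over it, and 0 of the 8 were called, with 0 at an unadjusted p under 0.05. In all tested peaks over a promoter window, 1.88% were called in either direction. The Nfkbia start peak had 2020 normalised reads with GSK3368712 and 1978 with DMSO in the authors' deposited table, a log2 change of 0.03. The Nfkb2 peak overlaps all 3 of its windows and lies inside the gene, 3.99 kb from its lower-coordinate end, which is the start side. It had 2998 reads with GSK3368712 and 3019 with DMSO in the authors' deposited table. The Tnfaip3 start peak had 885 reads with GSK3368712 and 929 with DMSO in the authors' deposited table, a log2 change of -0.07. Both groups were thus close at each of these sites. The 95% intervals of the 8 changes, computed from the SE, together ran from -0.33 to 0.35. At each of the 8 that SE came from peaks near in level, so the intervals are approximate. All 12 tested peaks within 1 kb of an end of one of the 10 genes were uncalled as well, against 1.54% lower and 0.252% higher among the 12692 such peaks of all protein-coding genes.

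Away from the gene ends, accessibility was lower at several sites. Of the 91 tested peaks, 11 were called lower with GSK3368712, or 12.1%, and 1 was called higher, or 1.1%. Over all tested peaks 6.09% were lower and 0.492% higher. At an unadjusted p under 0.05 there were 24 lower and 2 higher peaks, against 14.3% lower and 2.18% higher over all tested peaks. The lower peaks belonged to 4 genes: 4 to Nfkb1, 4 to Tnfaip3, 2 to Nfkbia and 1 to Traf1. The higher peak lay in Tnfrsf1b. Peaks assigned to Nfkb2, Rela, Relb, Tnfrsf1a and Birc3 gave 0 calls by the authors' test, and 0 of these peaks had an unadjusted p under 0.05. The median log2 change of the 91 peaks was -0.17, against -0.07 over all tested peaks, and 63 were below 0 and 26 above it. Of all 74791 tested peaks 46563 were below 0 and 27062 above it, so most changes were below 0 in the whole table too. Scaling to group totals, which shifts both medians alike, put that of the 91 at -0.09. With folds scaled to the groups' sums of normalised reads over all peaks, 4 of the 91 were lower, or 4.4%, against 3.6% of all, and 1 was higher, against 0.829%. After centring on the median of tested peaks 5 were lower, against 3.81% of all, and 1 was higher, against 0.775%. At an adjusted p of 0.01, 4 were lower, against 3.49% of all. The share of lower peaks thus stood above that of the whole table by the authors' scale at 0.05 and close to it under these settings.

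**Figure D1:**
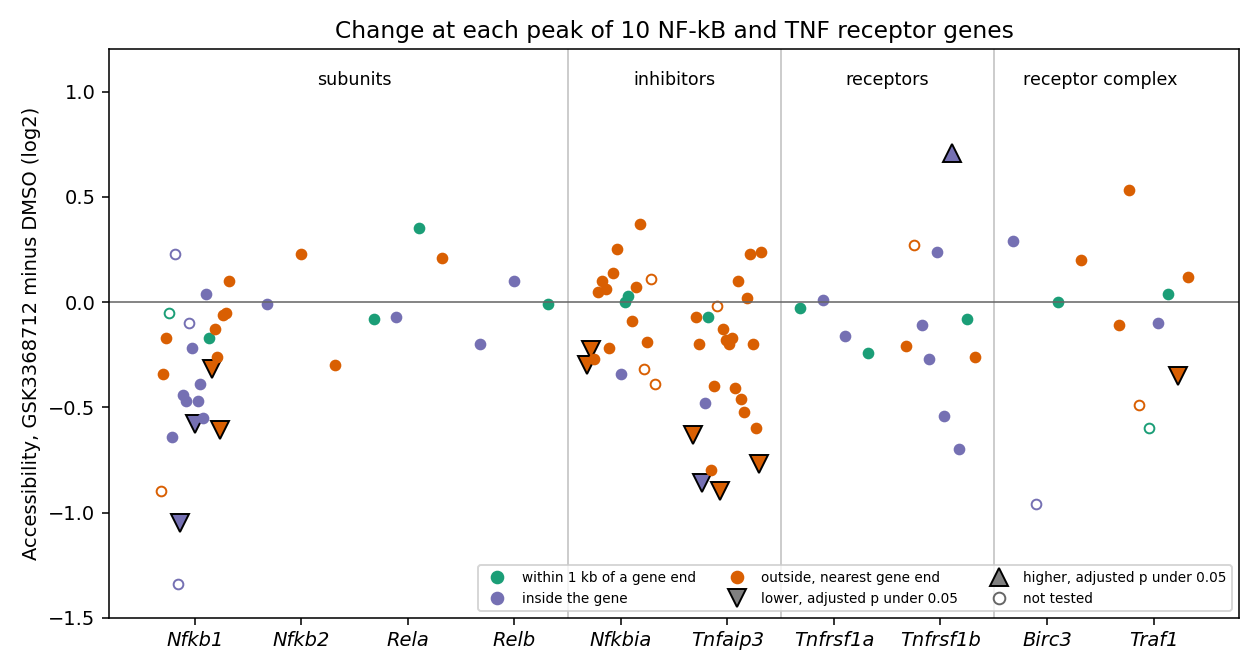
Log2 change in accessibility, GSK3368712 minus DMSO, at each of the 104 peaks of the 10 genes (vertical axis), by gene in order of position along the chromosome within each column. Colours give the place of the peak, large triangles the calls, and open circles peaks that were not tested; the 11 lower calls lie in Nfkb1, Nfkbia, Tnfaip3 and Traf1, none of them at a gene end, and the 1 higher call in Tnfrsf1b.

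Genes with more peaks have more chances of a call. The 10 genes had a mean of 9.1 tested peaks, from 3 for Nfkb2, Relb and Birc3 to 20 for Nfkb1 and 23 for Tnfaip3. The median over protein-coding genes with a tested peak was 3, which is not directly comparable with a mean. At least 1 lower peak was found for 4 of the 10 genes, or 40%, against 18.6% of 16815 protein-coding genes, and at least 1 higher peak for 1 gene, against 2.17%. Among genes with at least 8 tested peaks it was found for 3 of 4, namely Nfkb1, Nfkbia and Tnfaip3 but not Tnfrsf1b, against 54.7% of 3022 genes. By place, 3 of 29 tested peaks inside a protein-coding gene were lower, or 10.3%, against 6.7% of all such peaks, and 8 of 50 intergenic peaks, or 16%, against 7.39%. The 1 higher peak was one of those inside a gene, where 0.446% of all were higher, and 0 intergenic peaks were called higher, with 1 at an unadjusted p under 0.05, against 0.65% of all.

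Most lower calls were 20 kb or more from an end of the gene, counting peaks inside a gene as well as outside it. In the range of 20 to 50 kb from the gene's end, 7 of 19 tested peaks were lower, or 36.8%, against 8.07% of all peaks at that distance from their nearest gene end. These 7 were the 4 of Nfkb1, the 2 of Nfkbia and 1 of Tnfaip3. Those of Nfkb1 at 22.7 and 21.0 kb lie inside the gene. From 1 to 5 kb it was 1 of 21 and from 5 to 20 kb 1 of 25, against 4.97% and 6.6% of all. Beyond 50 kb it was 2 of 14, both of Tnfaip3, against 8.66%. The bins hold few peaks of few genes, so these shares are a description.

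**Figure D2:**
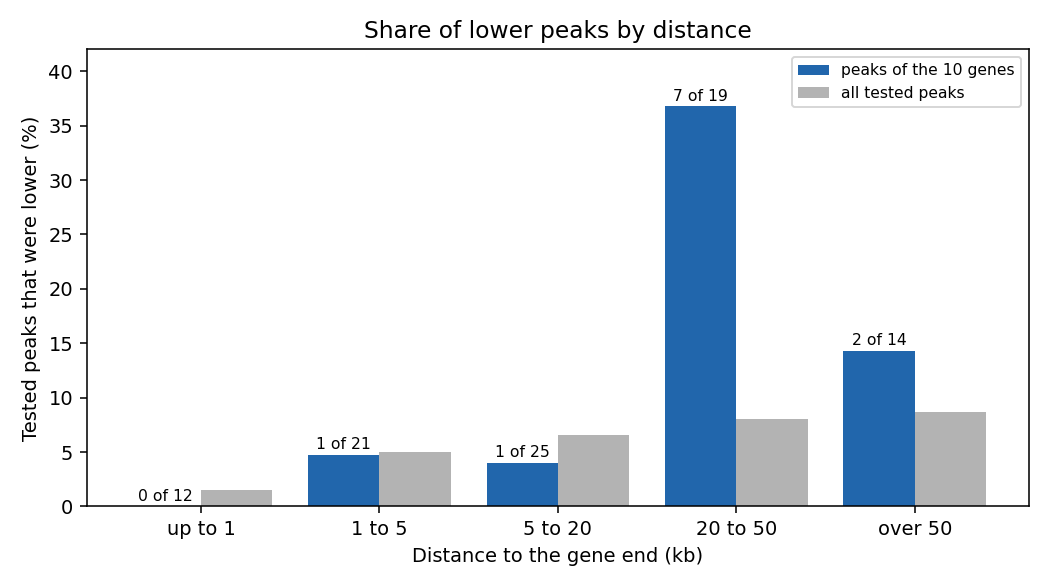
Percentage of tested peaks called lower with GSK3368712 (vertical axis) by distance in kb to the gene end (horizontal axis), for peaks of the 10 genes (left bars, with counts) and all tested peaks (right bars). Peaks inside a gene are included. The bar for 20 to 50 kb stands at 36.8% against 8.07%, while the bar up to 1 kb is empty.

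Among the 4 subunit genes only Nfkb1 had called peaks, and it also had the most tested ones. Nfkb1, which encodes p105, the precursor of the p50 subunit and itself an IkB-like inhibitor, had 25 peaks on chromosome 3, of which 20 were tested. Of these 4 were lower and 0 higher, with 8 lower and 0 higher at an unadjusted p under 0.05, and 18 of the 20 changes were below 0, with a median of -0.33. Over all tested peaks 46563 of 74791 changes were below 0, with a median of -0.07. Summed over its 25 peaks, 13319 bp in all, Nfkb1 had 3761 normalised reads with GSK3368712 and 4692 with DMSO, a ratio of 0.802, against 0.946 over all peaks of the table. The strongest evidence came from a peak inside the gene, 21.0 kb from its higher-coordinate end, at chr3:135670416-135671425. It had 436.5 reads with GSK3368712 and 652.6 with DMSO in the authors' deposited table, a log2 change of -0.58 (SE 0.12, adjusted p = 8.06e-05). This peak is strong and its derived SE is small, though that SE rests on a spread that may be technical.

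The other 3 lower peaks of Nfkb1 were close to the threshold. A weak peak inside the gene, 22.7 kb from its lower-coordinate end, had 35.3 reads with GSK3368712 and 73.0 with DMSO in the authors' deposited table, a log2 change of -1.05 (SE 0.35, adjusted p = 0.0428). It was the only one of the 12 called peaks that had not been detected as a peak in every library. A broad peak of 1738 bp, 20.7 kb outside the higher-coordinate end, had 719 reads with GSK3368712 and 898 with DMSO in the authors' deposited table, a log2 change of -0.32 (SE 0.11, adjusted p = 0.0421). The third lay 38.2 kb outside that end, with 124 reads with GSK3368712 and 189 with DMSO in the authors' deposited table, a log2 change of -0.61 (adjusted p = 0.0451). With the adjustment made over all 97699 peaks these 3 had adjusted p-values of 0.0541, 0.0532 and 0.0568 and were no longer called, and group totals gave 0.0883, 0.226 and 0.131. Just beyond the threshold was a peak inside the gene, 44.3 kb from an end, with a log2 change of -0.44 in the authors' deposited table (adjusted p = 0.0558).

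Lower peaks of Nfkb1 had uncalled peaks beside them, and differences between neighbours were not tested. Beside the one 21.0 kb inside the higher-coordinate end, at -0.58, a peak 3307 bp away was at -0.47 in the authors' deposited table (adjusted p = 0.268). The peak 38.2 kb out, at -0.61, was followed 262 bp further on by one at -0.06 and then by one at -0.05 in the authors' deposited table, both uncalled. The peak at the higher-coordinate end of the gene had 391 reads with GSK3368712 and 440 with DMSO in the authors' deposited table, a log2 change of -0.17 (adjusted p = 0.645). A weak peak 10.3 kb inside the lower-coordinate end, at -1.34 in the authors' deposited table, was not tested.

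Nfkb2, which encodes p100, the precursor of p52, Rela, which encodes the transactivating subunit p65, and Relb, the partner of p52, had 3, 4 and 3 tested peaks, all uncalled. Over all tested peaks 6.09% were lower, and at so few peaks these genes are not shown to differ from that or from Nfkb1. The summed reads of Nfkb2, Rela and Relb had ratios of 0.995, 0.985 and 1 between GSK3368712 and DMSO. The start peak of Rela had 949 reads with GSK3368712 and 1003 with DMSO in the authors' deposited table, a log2 change of -0.08 (SE 0.09, adjusted p = 0.801). A weaker peak beyond its other end had 121 reads with GSK3368712 and 95.01 with DMSO in the authors' deposited table, a change of 0.35 with an adjusted p of 0.551. The peak at the higher-coordinate end of Relb had 1722 reads with GSK3368712 and 1734 with DMSO in the authors' deposited table. Both peaks beyond the far end of Nfkb2 lie inside the neighbouring gene Psd, with changes of 0.23 and -0.30 in the authors' deposited table and adjusted p-values of 0.533 and 0.522.

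The inhibitor genes Nfkbia and Tnfaip3 held 39 of the 91 tested peaks and 6 of the 11 lower ones. Of their tested peaks 15.4% were lower, against 13.3% for the subunit genes, 12.1% for all 10 genes and 6.09% over all tested peaks. The roles hold few peaks, and a difference between them was not tested. Tnfaip3 encodes A20, a ubiquitin-editing enzyme that shuts off signalling from TNF receptors. It had 24 peaks on chromosome 10, spread over the wide intervals that separate it from its neighbours Perp and Olig3, and 23 were tested. Of these 4 were lower and 0 higher, with 10 lower and 1 higher at an unadjusted p under 0.05, 19 changes were below 0 and 4 above it, and the median was -0.20. The summed reads of Tnfaip3, over 14396 bp, were 4641 with GSK3368712 and 5487 with DMSO, a ratio of 0.846. The lower peaks were spread over 218 kb, from 18935088 to 19153430.

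The largest evidence at Tnfaip3 was 138 kb upstream of the gene's start, at chr10:19152804-19153430. There the authors' deposited table has 272.5 reads with GSK3368712 and 464.6 with DMSO, a log2 change of -0.77 (SE 0.14, adjusted p = 4.37e-06). It is the outermost of 4 neighbouring peaks, whose changes in the authors' deposited table were, towards the gene, -0.60, -0.20 and 0.23, none of them called. A peak 28.6 kb upstream had 135 reads with GSK3368712 and 252.5 with DMSO in the authors' deposited table, a log2 change of -0.90 (SE 0.19, adjusted p = 0.000257). A stronger peak 1506 bp beyond it, with 771 reads with GSK3368712 and 843 with DMSO, had a change of -0.13 in the authors' deposited table (adjusted p = 0.619). Lower peaks of Tnfaip3 thus stood beside uncalled ones, and differences between neighbours were not tested.

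Both remaining lower peaks of Tnfaip3 lay in the gene and on its other side. The peak inside the gene, 6.66 kb from its start, had 71.5 reads with GSK3368712 and 130 with DMSO in the authors' deposited table, a log2 change of -0.86 (SE 0.25, adjusted p = 0.0163). Its neighbour 240 bp away had -0.48 in the authors' deposited table and was not called, at an adjusted p of 0.118. The peak 65.6 kb beyond the far end had 146 reads with GSK3368712 and 226 with DMSO in the authors' deposited table, a log2 change of -0.63 (adjusted p = 0.0301). That call was lost with group totals, at an adjusted p of 0.0975, while the other 3 were kept. The outermost upstream peak of Tnfaip3, 153 kb away, had a change of 0.24 in the authors' deposited table (adjusted p = 0.289), and the next peak, 171 kb away, already has Olig3 as its nearest gene.

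**Figure D3:**
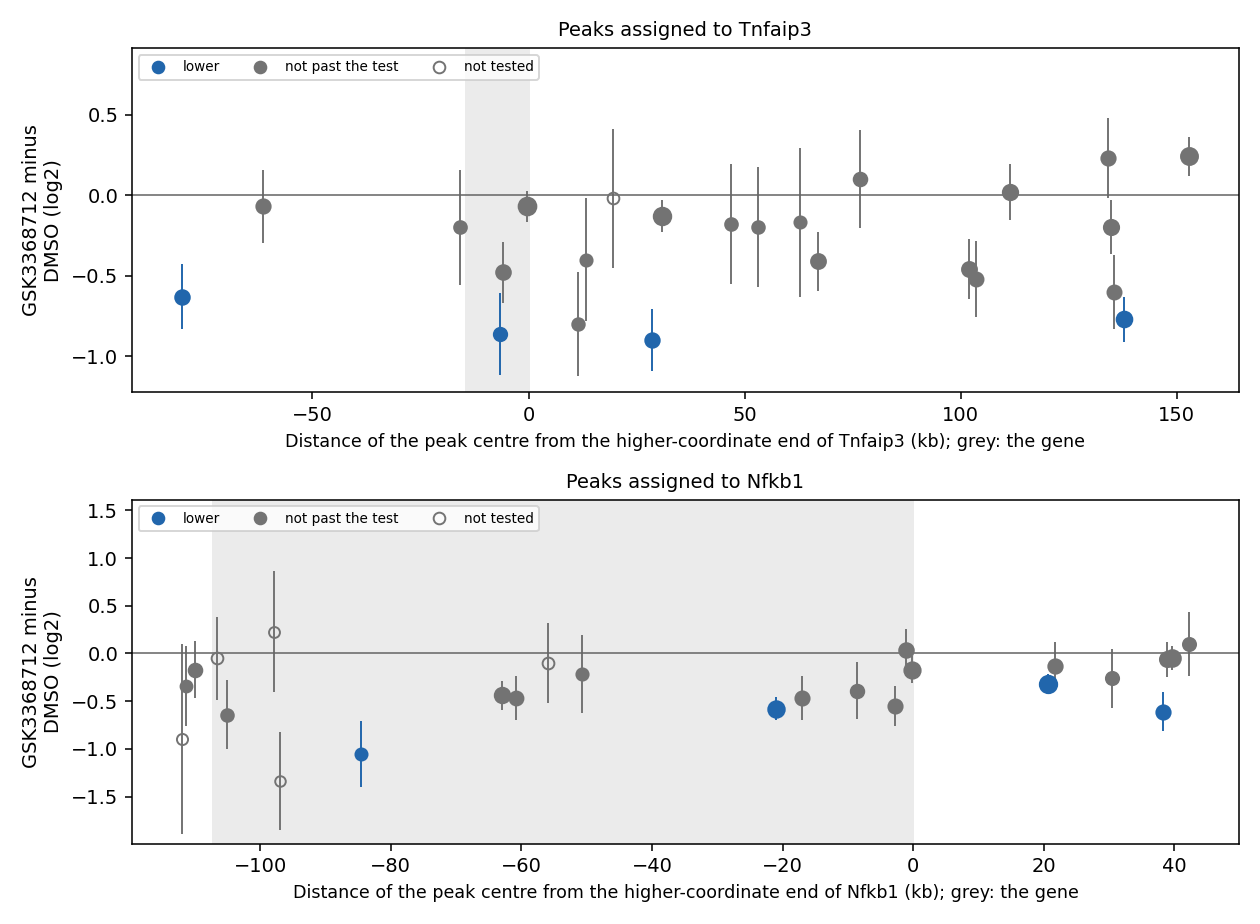
Log2 change in accessibility, GSK3368712 minus DMSO (vertical axis), at each peak of Tnfaip3 (top) and Nfkb1 (bottom), by distance in kb from the higher-coordinate end of the gene, which for Tnfaip3 is its start. Bars are 1 derived SE on either side, point size grows with the level, and the gene is shaded; lower calls (blue) at Tnfaip3 lie 138 and 28.6 kb upstream, inside the gene and 65.6 kb beyond its far end.

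Nfkbia encodes IkB alpha, the inhibitor that NF-kB itself induces most quickly. It had 19 peaks on chromosome 12, of which 16 were tested, and 2 were lower and 0 higher, with 3 lower and 0 higher at an unadjusted p under 0.05. The median change was 0.015, with 7 changes below 0 and 8 above it. Both lower peaks are adjacent, 178 bp apart, and lie 22.7 and 23.9 kb beyond the far end of the gene. The nearer one, at chr12:55466165-55467307, had 2048 reads with GSK3368712 and 2402 with DMSO in the authors' deposited table, a log2 change of -0.23 (SE 0.07, adjusted p = 0.0129). The farther one had 1010 reads with GSK3368712 and 1243 with DMSO in the authors' deposited table, a change of -0.30 (SE 0.09, adjusted p = 0.0228). These were among the strongest peaks of the 10 genes, and their ratios, 0.853 and 0.812, were the nearest to 1 among the 11 lower peaks. Neither passed with group totals, at adjusted p-values of 0.223 and 0.161, nor with centring on the median of tested peaks, at 0.177 and 0.131.

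None of the peaks between that pair and Nfkbia was called, and their changes had both signs. The one next to the pair, 15.4 kb from the gene, was at -0.27 in the authors' deposited table (adjusted p = 0.618). A peak 2.45 kb beyond the gene had 975.5 reads with GSK3368712 and 885 with DMSO in the authors' deposited table, a change of 0.14 (adjusted p = 0.561). Next to it a peak was at 0.25 in the authors' deposited table (adjusted p = 0.492). A peak inside the gene had 280 reads with GSK3368712 and 355 with DMSO in the authors' deposited table, a change of -0.34 that was not called, at an adjusted p of 0.187.

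The receptor genes had 0 lower calls among 13 tested peaks by the authors' test, with 2 lower at an unadjusted p under 0.05. Over all tested peaks these shares were 6.09% and 14.3%, and at 13 peaks the receptor genes are not shown to differ from them. They held the only higher call of the 10 genes. Tnfrsf1b encodes TNFR2, the receptor that carries no death domain and is prominent in lymphoid and endothelial cells. It had 10 peaks on chromosome 4, of which 9 were tested. The higher peak lies inside the gene, 7.29 kb from its start, at chr4:145239092-145240065. It had 413 reads with GSK3368712 and 252.5 with DMSO in the authors' deposited table, a log2 change of 0.71 (SE 0.14, adjusted p = 8.76e-05), a ratio of 1.64. It passed under each scaling tried.

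The neighbours of that peak had changes of the opposite sign. A peak 719 bp nearer to the start had 73.5 reads with GSK3368712 and 119 with DMSO in the authors' deposited table, a change of -0.70 (SE 0.28, adjusted p = 0.128). On the other side a peak 16.9 kb inside the gene had 105 reads with GSK3368712 and 153 with DMSO in the authors' deposited table, a change of -0.54 (adjusted p = 0.147). Of the 9 tested peaks 7 were below 0, the median was -0.21, and the summed reads over the 10 peaks were 1733 with GSK3368712 and 1763 with DMSO, a ratio of 0.983. Among all 74791 tested peaks 46563 were below 0, and their median was -0.07. The next peak on the start side, 11.3 kb from Tnfrsf1b but nearer to the related receptor gene Tnfrsf8, was lower, with -0.48 in the authors' deposited table (adjusted p = 0.0051).

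Tnfrsf1a encodes TNFR1, the widely expressed death-domain receptor that starts most responses to soluble TNF. Its 4 peaks on chromosome 6 were all tested and uncalled, with changes between -0.24 and 0.01. The start peak had 474 reads with GSK3368712 and 484 with DMSO in the authors' deposited table, a change of -0.03 with a 95% interval of -0.28 to 0.22. A peak inside the gene had 564 reads with GSK3368712 and 560 with DMSO in the authors' deposited table, with an interval of -0.22 to 0.24. Both intervals use an SE from peaks near in level. A change within these intervals is not excluded, and the intervals are not a limit of detection.

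**Figure D4:**
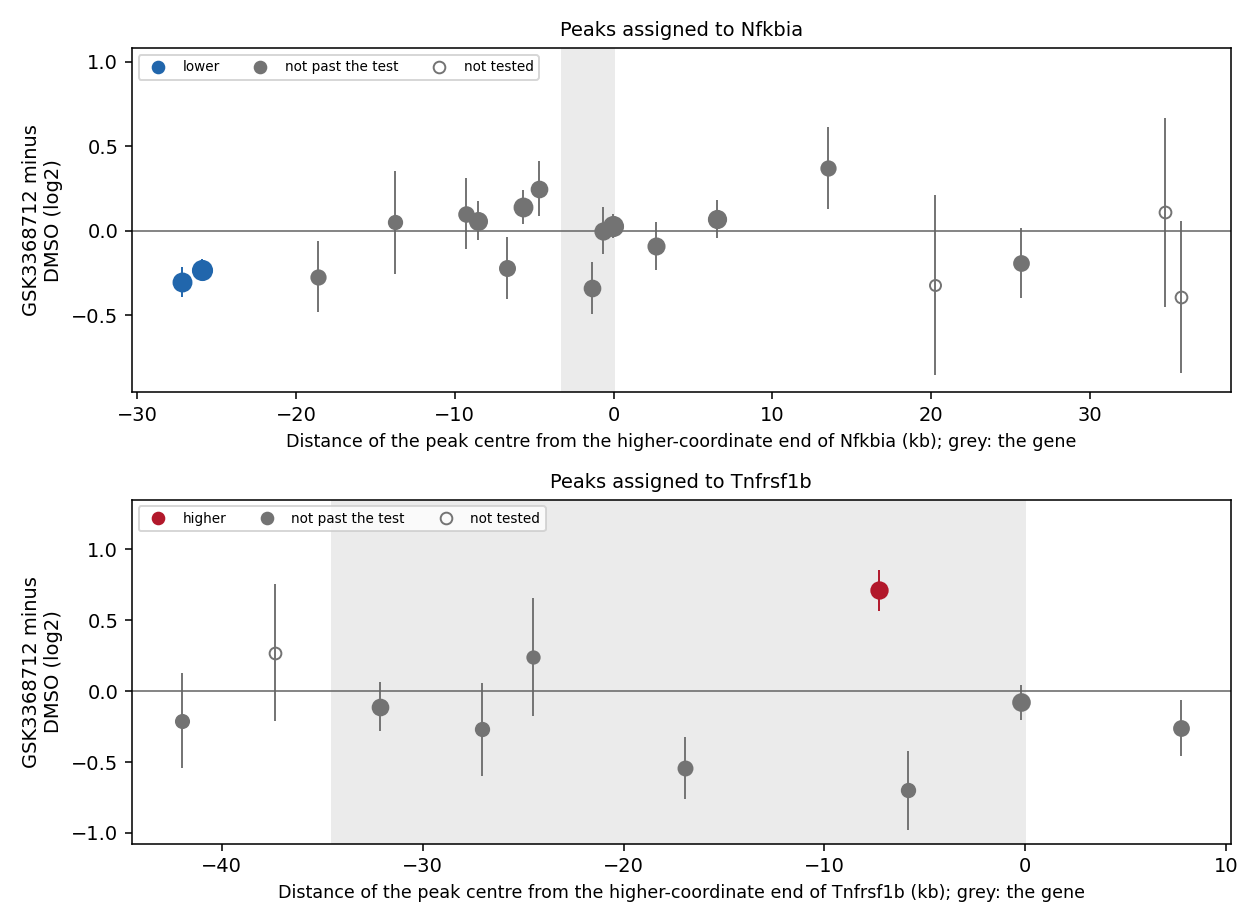
Log2 change in accessibility, GSK3368712 minus DMSO (vertical axis), at each peak of Nfkbia (top) and Tnfrsf1b (bottom), by distance in kb from the higher-coordinate end of the gene, which is the start of both. Bars are 1 derived SE on either side, point size grows with the level, and the gene is shaded; the pair of lower peaks of Nfkbia (blue) stands on the far side, and the higher peak of Tnfrsf1b (red), at 0.71, has uncalled peaks at -0.70 and -0.54 on either side.

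Traf1 and Birc3 encode members of the complex that forms on the receptors. Traf1 encodes an adaptor that joins TRAF2 and the cIAP proteins. It had 8 peaks on chromosome 2, of which 6 were tested, and 1 was lower. That peak lies 1.72 kb upstream of the gene, at chr2:34962997-34964071, with 820 reads with GSK3368712 and 1046 with DMSO in the authors' deposited table, a log2 change of -0.35 (SE 0.09, adjusted p = 0.00452). With group totals its adjusted p was 0.0638. The start peak, 1091 bp away, had 272.5 reads with GSK3368712 and 265 with DMSO in the authors' deposited table, a change of 0.04 (adjusted p = 0.952). A pair of weak peaks near the far end of the gene, at -0.49 and -0.60 in the authors' deposited table, was not tested.

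Birc3 encodes cIAP2, a ubiquitin ligase of the receptor complex and a known target of NF-kB. Its 3 tested peaks, on chromosome 9, were uncalled. The start peak had 526 reads in each group in the authors' deposited table, a change of 0.00 with an interval of -0.24 to 0.24. The SE behind that interval came from peaks near in level. The other tested peaks, inside the gene and 24.6 kb upstream, had changes of 0.29 and 0.20 in the authors' deposited table, with adjusted p-values of 0.762 and 0.79. One further peak inside Birc3 was not tested, and held 0.871 normalised reads with GSK3368712 and 1.69 with DMSO in the authors' deposited table.

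**Figure D5:**
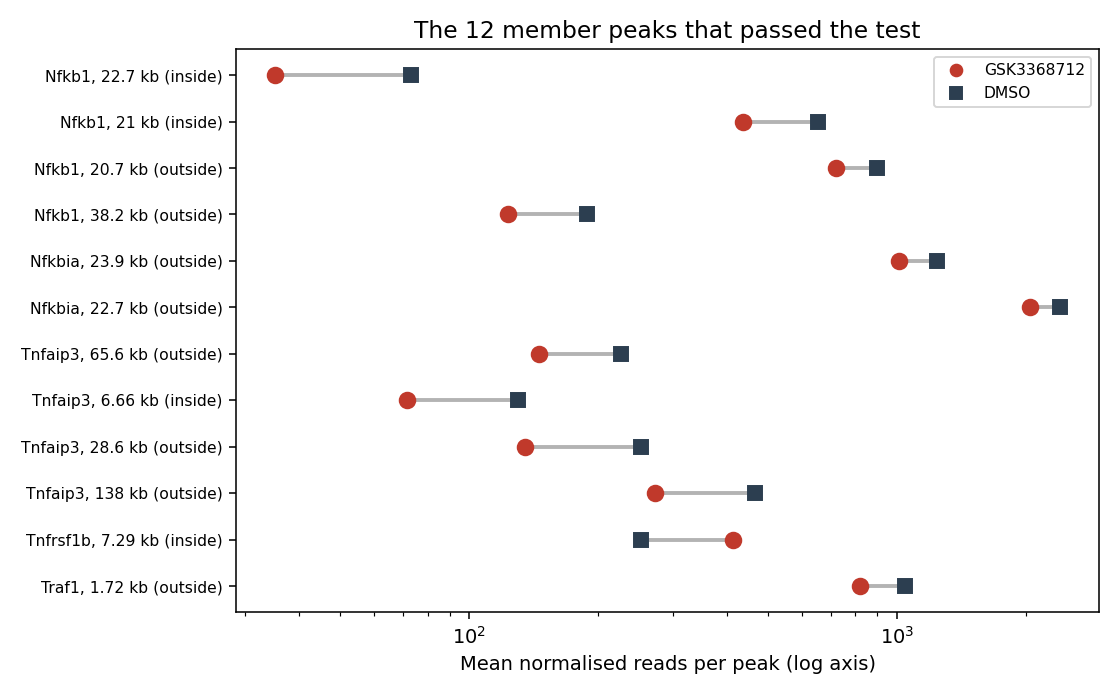
Mean normalised reads per peak (horizontal log axis) with GSK3368712 (circles) and with DMSO (squares) for the 12 called peaks, named by gene and distance to its end. GSK3368712 lies below DMSO in 11 of them and above it only at the peak inside Tnfrsf1b, with 413 against 252.5 reads; the lowest peak is that of Nfkb1, with 35.3 against 73.0.

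The lower peaks of the 10 genes ranged widely in level. Their median was 370 normalised reads over both groups, against 244 for all lower peaks of the table, 144 for the 79 uncalled tested peaks of the 10 genes and 132 for all tested peaks, and their median SE was 0.139, against 0.212 for the uncalled ones. Since the test needs a larger change at a weak peak, a call depends on level as well as on change. At or above the median level of tested peaks, and adjusted there, 10 of 54 peaks were lower, or 18.5%, against 9.81% of all.

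Other genes of the pathway, 38 in number, had lower peaks about as often as the whole table. In 37 of them with a tested peak, 12 of 175 tested peaks were lower, or 6.86%, and 0 were higher, with 28 lower and 6 higher at an unadjusted p under 0.05. By gene, 9 of 37 had a lower peak, or 24.3%, against 18.6% of protein-coding genes, with 4.73 tested peaks each. Their median change was -0.11. The smallest adjusted p belonged to a peak inside Rel, the gene of the subunit c-Rel, which had 140 reads with GSK3368712 and 298 with DMSO in the authors' deposited table, a log2 change of -1.09 (SE 0.18, adjusted p = 3.16e-07). A second peak inside Rel fell by 1.02 on the log2 scale in the authors' deposited table (adjusted p = 0.0107).

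The IkB genes Nfkbib and Nfkbid, with 2 tested peaks each, and Tnip2, a relative of Tnip1 with 3, had 0 called by the authors' test, with 1 peak, of Nfkbib, at an unadjusted p under 0.05. Over all tested peaks 6.09% were lower, and so few peaks cannot show a difference from that. Peaks of Bcl3, Nfkbiz and Nfkbie, which encode IkB proteins, fell by 0.35, 0.62 and 0.66 in the authors' deposited table, with adjusted p-values of 0.00275, 0.00311 and 0.00844. Of these genes Nfkbie also had a lower peak within 1 kb of its end, at -0.30 in the authors' deposited table (adjusted p = 0.0427). It was the only called peak among the 37 tested gene-end peaks of the 38 genes. Of all 12692 tested gene-end peaks 1.54% were lower and 0.252% higher, and the 37 are not shown to differ from that. Tnip1, whose product ABIN1 works with A20, had 11 tested peaks with a median of 0.10, among them peaks at -1.16 and -0.77 in the authors' deposited table, with adjusted p-values of 0.000922 and 0.0203. A peak near Cflar, the gene of the caspase-8 regulator c-FLIP, fell by 0.42 in the authors' deposited table (adjusted p = 0.000118). Peaks near Map3k7, which encodes the kinase TAK1, and inside Tnfrsf9, the gene of the costimulatory receptor 4-1BB, fell by 1.26 and 0.76 in the authors' deposited table, with adjusted p-values of 0.0105 and 0.0149.

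Of all called peaks, 92.5% were lower, a share that was 81.3% with group totals and 83.1% after centring. The line was checked against markers by tested peaks within 1 kb of a gene end. Of 12 markers of colon epithelium 1 had one, Krt8, while Epcam, Cdx2 and Vil1 did not. Of 12 markers of fibroblasts and endothelium 5 did, of 7 melanocyte markers 2, and of 12 blood cell markers 7, though Ptprc did not. Summed over all peaks of a list's genes, colon epithelium had 11799 reads with GSK3368712 and 13019 with DMSO, a ratio of 0.906. Fibroblasts and endothelium had 28455 with GSK3368712 and 29262 with DMSO, a ratio of 0.972, melanocytes 8024 with GSK3368712 and 8392 with DMSO, a ratio of 0.956, and blood cells 4811 with GSK3368712 and 5134 with DMSO, a ratio of 0.937. The 10 genes had a ratio of 0.921, and all peaks 0.946. Their part in the results was not tested. In ATAC-seq of bulk cells a change in every cell and a loss of some cells with the open site cannot be told apart.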

How the data were processed

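Tools named in the submitters' processing notes are HISAT2 (2.1.0), MACS2 (2.1.1.20160309), Picard (1.113), DiffBind (2.8.0) and DESeq2, on the build mm10. For their settings, and for any shift of reads to the transposase cut, the labels have no entry. The authors deposited 1 table. Its levels and its fold are deposited as log2 values of mean normalised reads per group, and the fold, DMSO minus GSK3368712, was turned round. Both the p-value and its adjusted form were deposited by the authors, per the file headers. Another pair of columns counts libraries in which a peak was detected. Their names do not say which group each is for, so they were used only for detection in every library.

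Of the planned tests, those that need values per library were not run. Genes came from RefSeq on GRCm38.p6, the assembly behind mm10. Distances were taken from peak centres. Strand was known only for the 8 genes with a promoter window. The derived SE is the fold over the normal quantile of its p-value. For folds under 0.1 it is the median over 200 peaks near in level. From it, p-values were recomputed after taking off -0.08 (group totals) or -0.07 (median centring), with Benjamini-Hochberg adjustment, and without any shift 99.9% of calls were the same. Peaks planned for naming were those called, those at gene ends and, where a gene had none called, the one with the smallest p-value. Not all of these are given singly above, and other peaks were named as neighbours after their values were seen. Up to 8 other pathway genes with a called peak were named, by smallest adjusted p. Outside that rule Nfkbib, Nfkbid and Tnip2 were named, without a called peak. Members and lists were chosen with earlier results of these data known. Python 3.11.15, pandas 2.3.3 and scipy 1.17.1 were used.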

Additional observations from a re-analysis of the deposited data

How the results depend on the processing

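The count of lower peaks of the 10 genes, 11, was 4 at an adjusted p of 0.01, 1 with at least 1 log2 unit, 4 with group totals, 5 after median centring, and 3 with only peaks inside or within 1 kb of a gene. The count of higher peaks, 1, was 0 with at least 1 log2 unit. Over all tested peaks, 4558 lower ones became 2608, 982, 2694 and 2852 under the first 4 of these settings, and 368 higher ones 173, 78, 620 and 580. Of the other pathway genes, 3 had a lower peak with at least 1 log2 unit, against 9, and 1 had a higher one with group totals, median centring or peaks at or above the median level, against 0. With group totals the lower calls kept were 3 of Tnfaip3 and 1 of Nfkb1, and median centring also kept the 1 of Traf1. With adjustment over all peaks 8 of the 11 were kept, and those lost were 3 of Nfkb1. The median change of -0.17 was -0.091 with group totals and -0.10 after median centring, which move the median of all tested peaks as much by construction, -0.11 with only peaks inside or within 1 kb of a gene, -0.13 within 50 kb or with the nearest end of any gene, and -0.17 with no filter on level. The cause of these differences was not tested. By construction a stricter threshold removes calls, and both scalings move lower folds towards 0 and higher ones away from it. No paired analysis was possible because the table holds group means with no values per library, and for the same reason no library could be left out. Peaks under 35.8 normalised reads were not tested, which limits what weak sites can show.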
